A study of Mus musculus with 4 samples.

Results

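Ketone bodies are small fuels that the liver makes from fatty acids and that other tissues burn, and 8 genes of their breakdown, use and transport were followed in tumour-associated macrophages of mice labelled OXCT1mKO, a genotype that names Oxct1 as its target. The genes were chosen by symbol: Oxct1, Bdh1, Bdh2, Acat1, Aacs, Slc16a1, Slc16a6 and Slc16a7. All 8 were among the 24784 genes of the table. The libraries were 2 of the control genotype and 2 of OXCT1mKO, each from polyadenylated RNA of macrophages sorted out of liver tumours. All mice were male, 6 to 8 weeks old, and carried Hepa 1-6, a mouse hepatoma line. The sources used here do not give the promoter or cell type that drives the deletion, the alleles of the controls or the sort antibodies. Whether the samples are separate animals is not stated in the labels, so p-values cover the spread between these 4 libraries, which may be technical.

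In the mitochondria of hepatocytes acetoacetate is built from acetyl-CoA, and 3-hydroxybutyrate dehydrogenase (Bdh1) reduces it to 3-hydroxybutyrate. Both leave and enter cells through monocarboxylate transporters of the Slc16 family. In cells that use them, Bdh1 works in reverse, the transferase Oxct1 moves CoA from succinyl-CoA to acetoacetate, and the thiolase Acat1 splits the product into acetyl-CoA. Aacs activates acetoacetate in the cytosol for lipid synthesis without Oxct1. Hepatocytes normally make ketone bodies and lack the transferase.

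RefSeq promoter windows of build GRCm38.p6, from 250 bases before to 50 after the start of the gene, were found for 5 of the 8 genes. The windows of Oxct1 (chr15:4026178-4026477), the gene named in the genotype, and of Slc16a1 (chr3:104638414-104638713), the most abundant transporter of the 8, both on the plus strand, are shown. Capitals mark exact matches, on either strand, to any of 8 motifs: the GC box GGGCGG, the CCAAT box CCAAT, the TATA box TATAAA, the E-box CACGTG, the NRF1 core GCATGCGC, the nuclear receptor core site AGGTCA, the ERR motif TCAAGGTCA (which contains that core site) and the sterol response element TCACNCCAC.
Oxct1: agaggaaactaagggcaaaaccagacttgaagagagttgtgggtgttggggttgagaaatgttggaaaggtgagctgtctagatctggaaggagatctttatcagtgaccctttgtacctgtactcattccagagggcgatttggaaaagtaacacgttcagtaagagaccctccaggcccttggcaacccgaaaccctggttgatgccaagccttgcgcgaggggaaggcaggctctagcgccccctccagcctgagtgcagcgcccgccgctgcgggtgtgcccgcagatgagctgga
Slc16a1: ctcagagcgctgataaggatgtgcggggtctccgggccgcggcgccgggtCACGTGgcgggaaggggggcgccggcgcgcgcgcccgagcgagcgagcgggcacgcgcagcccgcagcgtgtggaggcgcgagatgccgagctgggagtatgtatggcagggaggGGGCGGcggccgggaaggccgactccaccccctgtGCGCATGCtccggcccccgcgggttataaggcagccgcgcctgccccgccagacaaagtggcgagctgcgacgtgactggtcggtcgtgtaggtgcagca

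The Oxct1 window held 0 matches to the 8 motifs. So did those of Aacs and of Bdh1 at chr16:31422047-31422346, which are not shown. The other Bdh1 window (chr16:31428503-31428802) held 1 GC box, and that of Bdh2 held 1 CCAAT box. Slc16a1 held 1 E-box, 1 GC box and 1 NRF1 core, found in 7.15%, 35.7% and 2.71% of the 32851 windows of this length in the RefSeq table. The windows also differed in CpG dinucleotides, with 11 in Oxct1 and 42 in Slc16a1, against a median of 7 over all windows. A match is a string of letters and not a bound site, and the absence of one says only that these letters are not in the window.

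Levels are in RPKM, that is reads divided by gene length and library size, so they can be compared between genes within a library, while between libraries they depend on the scaling described below. Oxct1 was the most abundant of the 8 in all 4 libraries, with 24.7% to 30.1% of their summed RPKM. Acat1, Aacs and Slc16a1 formed a middle group between 10.2 and 16.1 RPKM. Slc16a6 followed at 2.44 to 7.05 RPKM. Bdh1, Bdh2 and Slc16a7 were low, at 0.868 to 1.39, 0.441 to 0.988 and 0.167 to 0.714 RPKM. In the controls only Acat1 and Slc16a1 overlapped among genes that were neighbours in this order. In OXCT1mKO the overlaps were those of Acat1 with Aacs, of Bdh1 with Bdh2 and of Bdh2 with Slc16a7. Bdh1 and Oxct1, which act in sequence in mitochondrial ketone body breakdown, thus had very unequal transcript levels, with 15.4 and 17.4 times as much Oxct1 as Bdh1 in the controls and 10.6 and 17.7 times as much in OXCT1mKO.

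**Figure D1:**
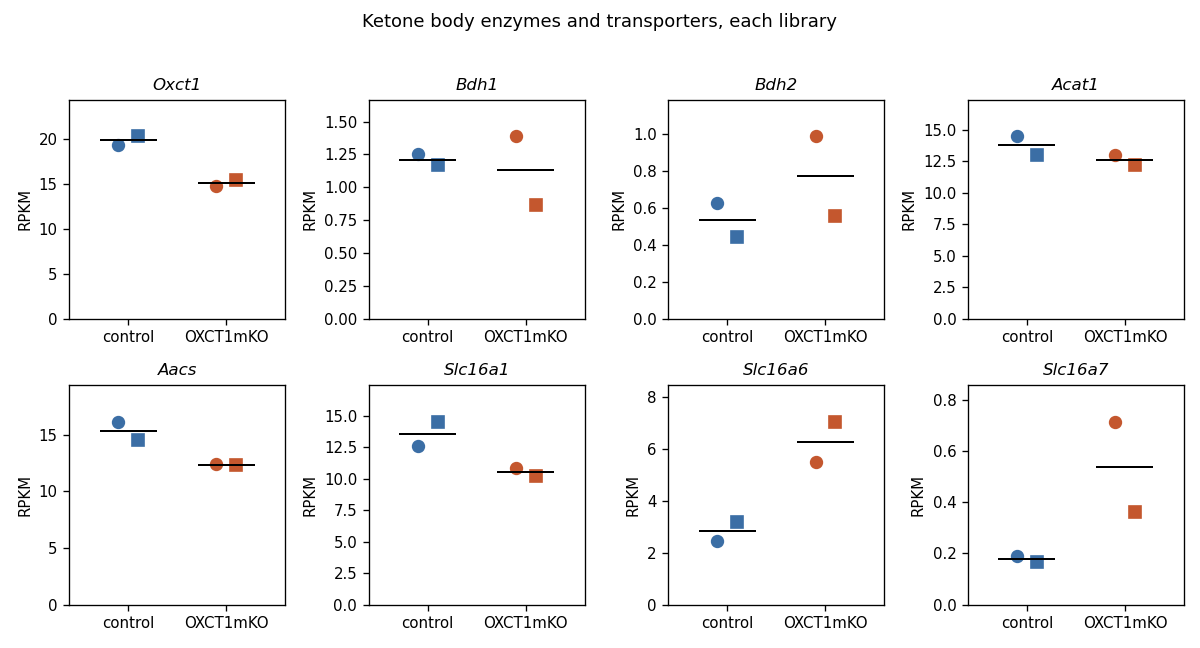
Level of each of the 8 ketone body genes in RPKM (vertical axes, each from 0) in the control (blue) and OXCT1mKO (red) libraries. Circles are replicate 1, squares replicate 2 and bars group means. Oxct1, Acat1, Aacs and Slc16a1 were lower in both OXCT1mKO libraries, Slc16a6 and Slc16a7 were higher in both, and the groups overlapped for Bdh1 and Bdh2.

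The comparison asked how these genes differed in level between the genotypes. Of the 8, 6 passed the filter on low genes (a mean of at least 1 RPKM) and were tested with limma, while Bdh2 and Slc16a7 did not pass it. Oxct1 fell and Slc16a6 rose, and the other 4 tested genes did not reach an adjusted p of 0.05. That is 2 of 6 called, beside 32.8% of all 12523 tested genes. The groups did not overlap for 5 of the 6, beside 74.7% of all 12523. The number called and the number separated are therefore near the background. The median log2 fold change of the 6 was -0.20, and that of all tested genes was 0.00. Over all 8, tested without the filter, the median was -0.09 and limma called 0, beside 12.0% of all genes in that fit. Of the 8, 5 had an unadjusted p under 0.05, beside 34.6% of all genes. All fold changes below are differences of log2(RPKM + 1), a scale that understates change in low genes, with their standard errors (SE).

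The libraries differed in ways that touch all of these results. RPKM sums were 377575 and 355951 in the controls and 327811 and 325034 in OXCT1mKO. Read depth is not known, although the commonest ratios among low values, shared by only 11 of 116, 5 of 120 and 12 of 113 genes, placed control 2, OXCT1mKO 1 and OXCT1mKO 2 at 1.026, 0.967 and 0.911 times the depth of control 1. Scaling each library to the same sum moved the median log2 fold change of all genes from 0.00 to 0.15, and changed the calls from 2058 higher and 2052 lower to 2887 higher and 1102 lower. With globin genes left out of the sum the calls were 2718 higher and 1478 lower. Among the 80 tested genes of the ketone body and other pathway lists below, limma called 29. Without OXCT1mKO 1 or without OXCT1mKO 2 almost no gene of the whole table was called. The loss of the 29 calls in those fits thus says little about the lists. Without the filter on low genes 16 of the 29 remained called.

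Macrophage markers were present in every library, and so were those of other cells. The counts of markers that rose or fell stand beside 16.4% of all tested genes called higher and 16.4% called lower. In the controls and then OXCT1mKO, the summed RPKM of 8 macrophage markers ranged from 563 to 1097 and from 1101 to 1193 (4 rose, 0 fell), of 6 Kupffer cell markers from 28.3 to 31.0 and from 223 to 373 (5 rose, 0 fell), and of 4 monocyte markers from 118 to 138 and from 303 to 378 (4 rose). The sums of 5 liver endothelial markers ran from 609 to 718 and from 1054 to 1185 (4 rose, 0 fell), of 5 hepatoma and fetal liver markers from 677 to 898 and from 456 to 516 (3 fell, 0 rose), and of 5 T cell markers from 110 to 176 and from 34.7 to 58.0 (4 fell, 0 rose). The sums of 7 pancreatic acinar markers ran from 35.8 to 49.6 and from 4.10 to 5.29 (7 fell), and of 7 hepatocyte markers from 466 to 551 and from 396 to 581 (1 rose, 1 fell). The sums of 5 neutrophil markers, 155 and 1254 in the controls and 382 to 565 in OXCT1mKO, had 1 fall among 4 tested. The sums of 5 erythroid markers were 24384 and 846 in the controls and 309 to 330 in OXCT1mKO, with 0 called. No marker was at 0 in all libraries, and Try4 of the acinar list was at 0 in OXCT1mKO 2. The part of these cell types in the results below was not tested, and fewer cells of a type cannot be told apart from less RNA per cell. Lyz2, the lysozyme gene of myeloid cells, was 688 and 744 RPKM in the controls, against 8.76 and 6.52 in OXCT1mKO, while its close paralog Lyz1 was at 14.7 and 13.5 RPKM in the controls, against 150.3 and 116 in OXCT1mKO. How the authors assigned reads that match both genes is not given in the sources used here, so both levels are uncertain.

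Oxct1, the transferase named in the genotype, was at 19.3 RPKM in control 1 and 20.3 RPKM in control 2, and at 14.7 and 15.4 RPKM in OXCT1mKO 1 and OXCT1mKO 2. Both OXCT1mKO libraries lay below both controls, with a ratio of group means of 0.76. The log2 fold change was -0.37 ± 0.09 (SE; limma adjusted p 0.0346). Its position among all genes was ordinary, as 21.5% of tested genes had a lower fold change. Relative to the median of all genes, the difference lay between -0.38 and -0.36 under the deposited scaling and the 3 other scalings. The call was kept without control 1 and lost without control 2, OXCT1mKO 1 or OXCT1mKO 2. Almost no gene of the whole table was called without either OXCT1mKO library, so the losses there say little about Oxct1. The Oxct1 call was lost as well with equal RPKM sums (log2 fold change -0.22, adjusted p 0.17), with equal sums without globin (-0.28, 0.0627) and without the filter on low genes (0.0504). These values sum over the gene, so the loss of 1 exon would not be visible in them.

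The gene lies on the plus strand of chromosome 15 (GRCm38, 4026383 to 4155344), with 3701 bases of exon in the GENCODE M21 annotation. The noncoding gene BC037032 overlaps 467 of these bases on the opposite strand, and was at 0.513 to 0.937 RPKM. Reads of that stretch cannot be told apart if the counting ignored strand. The paralogs Oxct2a and Oxct2b, copies expressed mainly in testis, were at or below 0.141 RPKM in every library. Oxct2a was listed at 0 in both OXCT1mKO libraries and at 0.0249 and 0.0969 RPKM in the controls. Transferase transcripts in these samples thus came almost wholly from Oxct1.

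Within 500 kb of Oxct1 the annotation holds 13 other genes, of which 5 were in the table and 3 were tested. AW549877, which lies 30639 bases away, rose from 4.85 and 6.32 RPKM to 9.27 and 8.65 RPKM (log2 fold change 0.61 ± 0.14 SE, limma adjusted p 0.0343). That call was lost when control 1 was left out, and without the filter on low genes (limma adjusted p 0.0754). It was also lost without either OXCT1mKO library, where almost no gene of the whole table was called. Fbxo4, an F-box gene 46810 bases away, was at 2.19 and 2.08 RPKM in the controls, against 3.51 and 2.92 in OXCT1mKO (0.42 ± 0.13, adjusted p 0.0654, or 0.0375 with equal RPKM sums). Ghr, the growth hormone receptor, had a log2 fold change of 0.39 ± 0.20 (adjusted p 0.183). All 3 tested neighbours had fold changes above 0, where the median of all tested genes was 0.00. Of the 3, only AW549877 was called, beside 32.8% of all tested genes.

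Since Oxct1 works inside mitochondria, its level was set against those of 2 lists of mitochondrial genes, as a description. The mean of 17 TCA cycle genes was 51.7 and 49.1 RPKM in the controls, against 40.4 and 41.4 in OXCT1mKO. Abundant genes weigh most in that mean, such as Mdh2 at 197 and 199 RPKM in the controls. The ratio of Oxct1 to the mean was 0.373 and 0.413 in the controls and 0.364 and 0.372 in OXCT1mKO. Both OXCT1mKO ratios thus lay below both controls, by little, with a ratio of group means of 0.94. The mean of 13 genes of the outer membrane, protein import and chaperones was 90.5 and 91.9 RPKM in the controls, against 59.2 and 59.3 in OXCT1mKO. Against it Oxct1 was higher in OXCT1mKO, with ratios of 0.248 and 0.260 beside 0.213 and 0.221. Against Csf1r, the macrophage growth factor receptor, it was lower, with ratios of 0.115 and 0.134 beside 0.422 and 0.705. The direction of the Oxct1 difference thus depended on the gene or list it was set against.

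**Figure D2:**
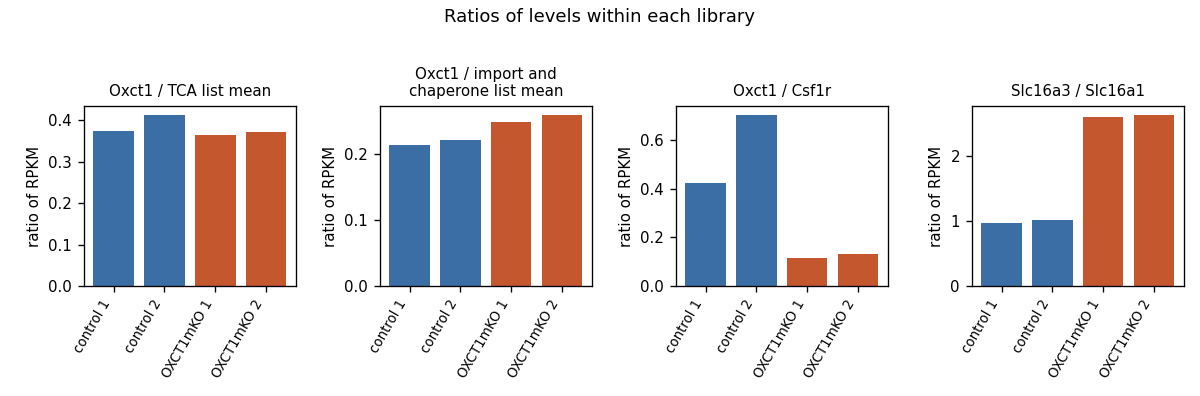
Ratios of RPKM values within each library (vertical axes from 0), controls in blue and OXCT1mKO in red. Oxct1 is divided by the mean of the TCA cycle list, by the mean of the outer membrane, import and chaperone list and by Csf1r, and Slc16a3 by Slc16a1. The first ratio is nearly level at 0.364 to 0.413, the second is higher and the third lower in OXCT1mKO, and the last goes from 0.965 and 1.01 in the controls to 2.60 and 2.63.

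The 5 tested genes whose profile over the 4 libraries was nearest to that of Oxct1, by Euclidean distance between centred log2(RPKM + 1) values, were Cdk5rap1, Fkbp1a, Lmnb2, Plpp5 and Mpnd, at distances of 0.0105 to 0.022. Within a distance of 0.1 lay 270 of the other 12522 tested genes, or 2.16%.

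Acat1, the mitochondrial thiolase that follows Oxct1 and also serves ketone body synthesis and isoleucine breakdown, was at 14.5 and 13.02 RPKM in the controls, against 12.97 and 12.2 in OXCT1mKO. Control 2 and OXCT1mKO 1 were almost level, though the groups did not overlap. The log2 fold change, -0.12 ± 0.10 (SE), did not pass (limma adjusted p 0.398). With equal RPKM sums it was 0.04, although relative to the median of all genes it was -0.12 as deposited and -0.11 with equal sums. Bdh1, the mitochondrial dehydrogenase of 3-hydroxybutyrate, was at 1.25 and 1.17 RPKM in the controls, against 1.39 and 0.868 in OXCT1mKO, so that the OXCT1mKO libraries lay on either side of the controls. Its difference of -0.07 ± 0.18 missed the threshold (adjusted p 0.792) and became 0.11 without OXCT1mKO 2. With equal sums it was 0.02, and relative to the median of all genes -0.12. The antisense gene Gm15743 overlaps 533 bases of Bdh1 exons and was at 0.101 to 0.168 RPKM. Bdh2, a cytosolic enzyme related to Bdh1, was at 0.628 and 0.441 RPKM in the controls, against 0.988 and 0.555 in OXCT1mKO, with overlapping groups and no test in the filtered fit (0.20 ± 0.16, adjusted p 0.446 without the filter).

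Aacs, the cytosolic acetoacetyl-CoA synthetase, was at 16.1 and 14.6 RPKM in the controls, against 12.5 and 12.3 in OXCT1mKO. The groups did not overlap and the ratio of means was 0.806. The log2 fold change of -0.29 ± 0.10 (SE) missed the threshold (limma adjusted p 0.0761), which it passed without control 2 (0.0491). It was -0.13 (adjusted p 0.32) with equal RPKM sums and -0.19 (0.194) with equal sums without globin, and relative to the median of all genes it lay between -0.30 and -0.28 under the 4 scalings. Aacs lies on chromosome 5 (125475814 to 125517410, plus strand) and Acat1 on chromosome 9 (53580522 to 53610382, minus strand). In the cytosol, Aacs shares its product with Acat2, the thiolase of sterol synthesis, which was at 9.10 and 7.57 RPKM in the controls, against 8.34 and 6.56 in OXCT1mKO. Of 6 genes of cytosolic acetyl-CoA and acetoacetyl-CoA use limma called 0, beside 32.8% of all tested genes. The median of the 6 was 0.10, and 1 of them had an unadjusted p under 0.05, beside 47.9% of all tested genes. That gene was Acss2, which makes acetyl-CoA from acetate, at 2.16 and 2.12 RPKM in the controls, against 3.52 and 2.97 in OXCT1mKO (0.43 ± 0.13, adjusted p 0.0588).

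Of the 3 transporters among the 8, 1 rose, 1 did not pass and 1 was below the filter. Slc16a1, or MCT1, which carries lactate, pyruvate and ketone bodies with a proton, was at 12.6 and 14.5 RPKM in the controls, against 10.9 and 10.2 in OXCT1mKO. Both OXCT1mKO libraries were lower, yet the log2 fold change of -0.33 ± 0.11 (SE) missed the threshold (limma adjusted p 0.074). It passed without control 1 (adjusted p 0.0481) and with median-of-ratios scaling (0.0489), but was -0.24 (0.134) without control 2 and -0.18 (0.328) with equal RPKM sums. Relative to the median of all genes it lay between -0.34 and -0.32 under the 4 scalings.

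Slc16a6, or MCT7, linked to ketone body export from the liver, was at 2.44 and 3.20 RPKM in the controls, against 5.49 and 7.05 in OXCT1mKO, a mean of 2.82 ± 0.54 against 6.27 ± 1.10 RPKM (SD, n = 2). Both OXCT1mKO libraries lay above both controls and the ratio of means was 2.22. The log2 fold change was 0.93 ± 0.17 (SE; limma adjusted p 0.0207), and 94.1% of tested genes had a lower one. Against Csf1r it was not higher, with ratios of 0.043 and 0.061 in OXCT1mKO beside 0.053 and 0.111 in the controls, which overlap. The Slc16a6 call was lost without the filter on low genes (limma adjusted p 0.0557). It was also lost without either OXCT1mKO library, where almost no gene of the whole table was called. The log2 fold change of Slc16a6 was 1.08 without OXCT1mKO 1 and 0.77 without OXCT1mKO 2. On the minus strand of chromosome 11 (109450855 to 109473598), 1052 bases of the exons of Slc16a6 overlap those of Amz2 on the other strand, and reads of that stretch cannot be told apart without strand. Amz2 was at 7.87 and 7.13 RPKM in the controls, against 6.06 and 6.44 in OXCT1mKO. The part of shared reads in either level was not tested.

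Slc16a7, or MCT2, a transporter of high affinity for pyruvate and ketone bodies, was at 0.189 and 0.167 RPKM in the controls, against 0.714 and 0.363 in OXCT1mKO. The groups did not overlap, but all 4 values were below the filter. Without the filter its log2 fold change was 0.38 ± 0.13 (SE; limma adjusted p 0.134), and with a pseudocount of 0.1 it was 1.14. Relative to Slc16a1, the commoner transporter, Slc16a6 stood at a ratio of 5.17 and 4.53 of Slc16a1 to Slc16a6 in the controls and of 1.98 and 1.45 in OXCT1mKO.

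Other monocarboxylate transporters and their chaperones were compared from a list of 14, of which 8 were tested, with a median of -0.06. Of those tested 2 rose and 2 fell, beside 16.4% of all tested genes higher and 16.4% lower. Slc16a3, or MCT4, the lactate exporter of glycolytic cells, was at 12.2 and 14.7 RPKM in the controls, against 28.3 and 27.0 in OXCT1mKO, about double in both (0.99 ± 0.12 SE, limma adjusted p 0.0127). Slc16a3 and Slc16a1 were at like levels in the controls, with ratios of 0.965 and 1.01, whereas Slc16a3 was ahead in OXCT1mKO, with ratios of 2.60 and 2.63. Slc16a4, a transporter of the same family, fell from 16.8 and 12.6 RPKM to 7.82 and 9.29 RPKM (-0.71 ± 0.17), a call lost without control 1 (adjusted p 0.0619) and with equal RPKM sums (0.0503).

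The chaperones that carry these transporters to the cell surface also moved apart. Bsg (basigin), the partner of MCT1 and MCT4, was at 411 and 477 RPKM in the controls, against 303 and 303 in OXCT1mKO (-0.55 ± 0.12 SE, limma adjusted p 0.0286, and 0.0953 with equal sums). Emb (embigin), its relative and the partner of MCT2, was at 10.4 and 14.2 RPKM in the controls, against 23.5 and 23.2 in OXCT1mKO (0.88 ± 0.16, adjusted p 0.0194). The ratio of Bsg to Emb was 39.4 and 33.6 in the controls and 12.9 and 13.1 in OXCT1mKO, so Bsg was the more abundant in every library. The sodium-coupled transporters Slc5a8 and Slc5a12 were at or below 0.0123 RPKM.

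**Figure D3:**
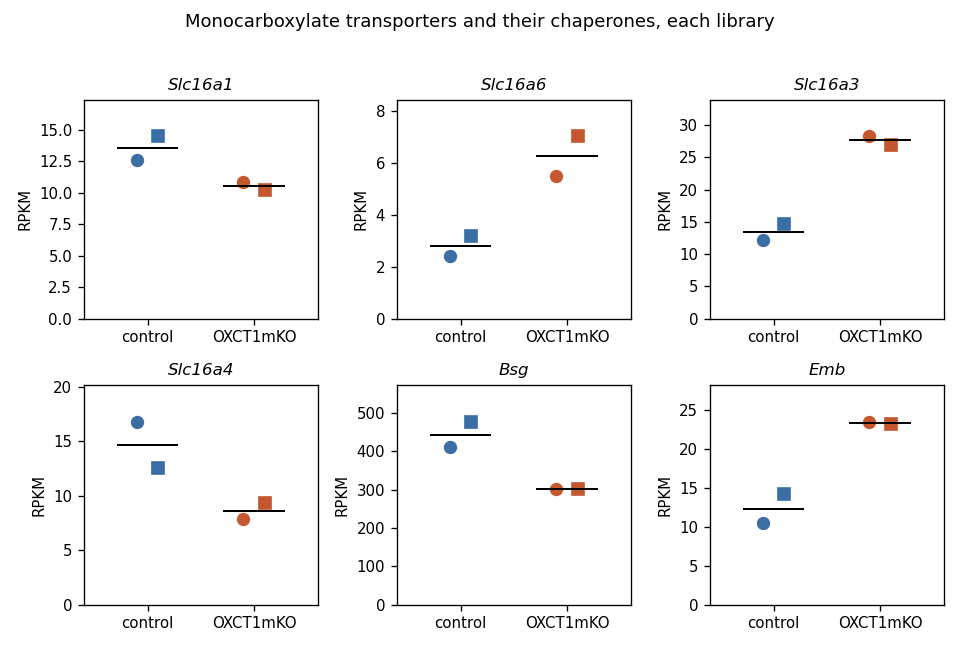
Levels in RPKM (vertical axes, each from 0) of 4 monocarboxylate transporters and the chaperones Bsg and Emb in control (blue) and OXCT1mKO (red) libraries, with circles for replicate 1, squares for replicate 2 and bars for group means. Slc16a6, Slc16a3 and Emb were higher in both OXCT1mKO libraries, while Slc16a1, Slc16a4 and Bsg were lower in both.

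Of the receptors that sense 3-hydroxybutyrate, Hcar2 was at 12.2 and 57.7 RPKM in the controls, against 25.7 and 28.2 in OXCT1mKO. The controls lay on either side of OXCT1mKO. So did their sums of 5 neutrophil markers, through S100a8 and S100a9, whereas Retnlg, Csf3r and Ly6g did not. The log2 fold change of Hcar2 was 0.00 ± 0.70 (SE; limma adjusted p 0.996). Without control 1 it was -1.07 (adjusted p 0.0212) and without control 2 it was 1.08 (0.0169), so its direction was set by which control was kept. Ffar3 was at or below 0.23 RPKM. Of 7 regulators of ketone body synthesis 4 were tested, 1 fell and 0 rose, beside 16.4% of all tested genes lower and 16.4% higher. Foxa2, a liver and endoderm transcription factor, fell from 10.4 and 10.2 RPKM to 3.71 and 4.83 RPKM (-1.11 ± 0.14, adjusted p 0.0127). Of the hepatoma and fetal liver markers 3 of 5 fell too, with sums of 677 and 898 RPKM in the controls beside 516 and 456 RPKM in OXCT1mKO. So did 7 of 7 pancreatic acinar markers, with sums of 49.6 and 35.8 RPKM beside 5.29 and 4.10 RPKM, and 4 of 5 T cell markers. The part of any of these cells in the Foxa2 fall was not tested. Ppara, the nuclear receptor that drives the pathway in liver, was at or below 0.242 RPKM.

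The pathways that meet Oxct1 in the mitochondrion were compared next. Of 17 TCA cycle genes 5 fell, 0 rose and 12 did not pass, beside 16.4% of all tested genes lower and 16.4% higher. The median of the list was -0.27, and 0 fell with equal RPKM sums, beside 8.78% of all genes. The fallers were Idh3a (-0.51 ± 0.11 SE) and Idh3g (-0.49 ± 0.09), subunits of isocitrate dehydrogenase, Suclg2 (-0.40 ± 0.10), a subunit of succinyl-CoA ligase, Sdhc (-0.37 ± 0.10), a subunit of succinate dehydrogenase, and Mdh2 (-0.50 ± 0.11), malate dehydrogenase. Limma adjusted p for these 5 lay between 0.0188 and 0.0436, and without control 1 it was 0.0707 for Suclg2 and 0.0842 for Sdhc. The enzymes that make and use succinyl-CoA, the CoA donor of Oxct1, were singled out after their values were seen. Ogdh, the first subunit of the complex that makes it, was at 15.1 and 12.5 RPKM in the controls, against 17.2 and 18.1 in OXCT1mKO (0.34 ± 0.12, adjusted p 0.0847), passing without control 1 (0.0383) and with equal sums (0.0303). Its partner Dlst (-0.21 ± 0.10, adjusted p 0.159) and the ligase subunits Suclg1 (-0.34 ± 0.10, 0.0561) and Sucla2 (-0.11 ± 0.10, 0.427) did not pass. Suclg1 passed without control 1 (adjusted p 0.0358) and with median-of-ratios scaling (0.0388).

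Breakdown of leucine, which ends in acetoacetate, and of isoleucine had 11 genes on the list, of which 10 were tested, with a median of -0.23. Of those tested 1 fell and 0 rose, beside 16.4% of all tested genes lower and 16.4% higher. Hsd17b10, the dehydrogenase of isoleucine breakdown that acts just before Acat1, fell from 45.6 and 47.1 RPKM to 30.7 and 31.4 RPKM (-0.56 ± 0.08 SE, limma adjusted p 0.0143). Of 15 genes of mitochondrial fatty acid oxidation, the source of acetyl-CoA for ketone body synthesis, 4 fell, 1 rose and 10 did not pass, with a median of -0.21. The same shares of all tested genes stand beside these counts. The fallers were Hadh (-0.64 ± 0.09), the dehydrogenase of short acyl chains, Etfb (-0.61 ± 0.12), an electron carrier, and the acyl-CoA dehydrogenases Acads (-0.52 ± 0.12) and Acadvl (-0.38 ± 0.10). Cpt1a, which admits fatty acids to the mitochondrion, rose from 9.14 and 10.2 RPKM to 15.0 and 12.8 RPKM (0.48 ± 0.12, adjusted p 0.0398, and 0.0908 without control 1). Acads lost its call without control 1 (adjusted p 0.0551), Acadvl without control 2 (0.0826), and both with equal sums.

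Genes of the mitochondrial outer membrane, import and chaperones had the lowest median of the pathway lists, at -0.55, with 11 of 13 lower, 0 higher and 2 not passing. Of all tested genes 16.4% were called lower and 16.4% higher. Tomm20, a receptor of the import pore, fell from 31.8 and 33.1 RPKM to 18.8 and 18.5 RPKM (-0.77 ± 0.08 SE). The prohibitins Phb (-0.70 ± 0.08) and Phb2 (-0.62 ± 0.08) and the chaperonin Hspd1 (-0.73 ± 0.11) fell as well, with limma adjusted p from 0.0127 to 0.0143 for the 4. With equal sums 9 of the 13 were lower and the median was -0.39. Oxct1, at -0.37, lay between the medians of this list and of the TCA cycle list.

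**Figure D4:**
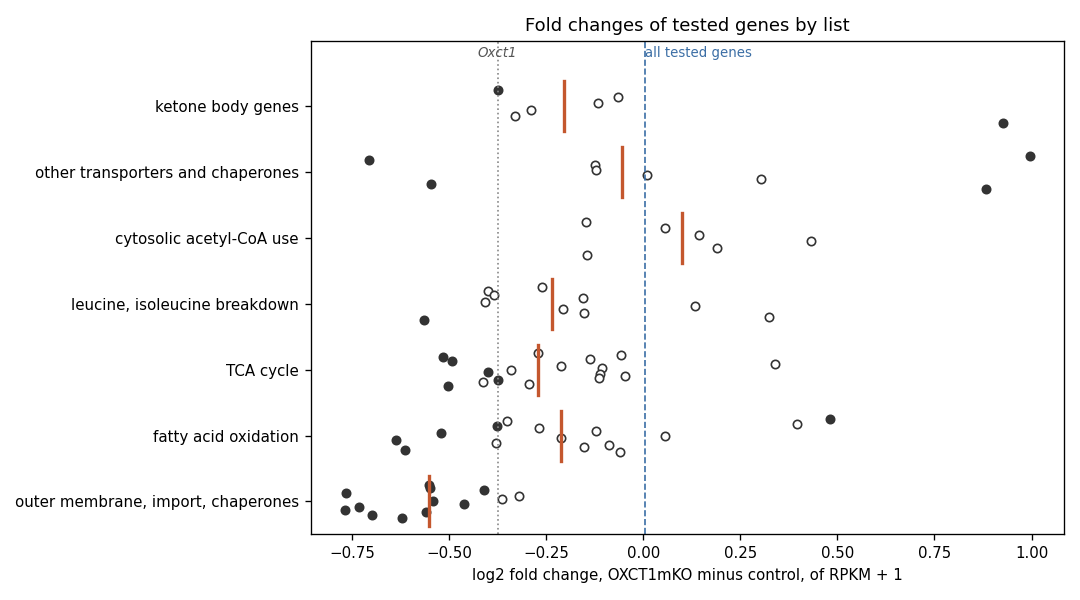
Log2 fold change of RPKM + 1, OXCT1mKO minus control (horizontal axis), for each tested gene of 7 lists. Filled circles passed a limma adjusted p of 0.05 and open circles did not, red bars are list medians, the dashed line is the median of all tested genes and the dotted line is Oxct1. Most genes of the mitochondrial lists lie left of the dashed line, and Slc16a6 stands alone at 0.93 among the ketone body genes.

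Over the 9 lists beside the 8 ketone body genes, 74 of 87 genes were tested, 24 fell and 3 rose, with a median of -0.24, beside 16.4% of all tested genes lower and 16.4% higher. With equal RPKM sums 13 were lower and 7 higher, beside 8.78% of all genes lower and 23.0% higher. That scaling multiplied all genes of a library by 1 factor, but on the log2(RPKM + 1) scale low genes moved less. Slc16a7, a low gene, went from 0.38 to 0.42, and Bsg, an abundant one, from -0.55 to -0.38. Relative to the median of all genes the list medians moved little, from -0.28 to -0.25 for the TCA cycle and from -0.56 to -0.53 for the outer membrane, import and chaperones.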

How the data were processed

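The authors deposited 1 table of RPKM values, in which rows are gene symbols and the 4 columns are samples, matched by title. The tools named, per the submitters' processing notes, are STAR 2.10 and R 4.0.5, and the build is mm10, with no roles stated. The sources used here do not give the counter, strand setting, annotation or gene lengths. The protocol text of the labels names a microarray, whereas the series type is sequencing.

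Here, log2(RPKM + 1) values of 12523 genes with a mean of at least 1 RPKM were fitted with limma 3.58.1 under R 4.3.3, with 1 group term and a variance trend. Tests were two-sided, with Benjamini-Hochberg adjustment over all genes tested and a threshold of 0.05. An exact permutation test of 2 against 2 cannot give a p below 0.333. No count model was used on RPKM. The fit was tested on simulated data. Relative depths are the commonest ratio (within 0.1%) between libraries of values of genes with a mean up to 0.05 RPKM, among ratios from 0.7 to 1.4. Gene positions came from GENCODE M21 (GRCm38, also called mm10), and promoters from RefSeq (GRCm38.p6). Alternatives were other pseudocounts, filters and scalings, no trend, a replicate block and leaving out each library.

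The genes, lists and tests were chosen with earlier results of these data known. Named genes are the 8, Lyz2, all called members of each pathway list (the 4 with the smallest p where more than 6 were called), all members of lists of 3 or fewer, tested genes within 500 kb of Oxct1 and the 5 nearest profiles. Acat2, Amz2, Lyz1, Acss2, Try4, S100a8, S100a9, Retnlg, Csf3r, Ly6g, Ppara, BC037032, Gm15743, Slc5a8, Slc5a12, Ogdh, Dlst, Suclg1 and Sucla2 were added after their values were seen. Some genes of the lists are not reported here and were left out of the lists, so list counts and medians are over the remaining genes.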

Additional observations from a re-analysis of the deposited data

How the results depend on the processing

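Groups of 2 libraries limit all of these results. Leaving out either OXCT1mKO library left almost no calls over the whole table, so calls lost there say little about these genes. Over the 4 fits that left out 1 library, in which a lone library is assumed to vary like the other group, the log2 fold change ranged from -0.41 to -0.34 for Oxct1, from 0.77 to 1.08 for Slc16a6, from -0.42 to -0.24 for Slc16a1, from -0.36 to -0.22 for Aacs and from -0.24 to 0.11 for Bdh1. Ketone body genes called lower ranged from 0 to 2 and higher from 0 to 1, other pathway genes called lower from 0 to 30 and higher from 0 to 4, and the share of all genes called from 0.00804% to 35.3%. Hcar2 turned to -1.07 without control 1 and -0.06 without OXCT1mKO 2.

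Among other settings, Oxct1 lost its call without the filter (-0.37), with equal sums (-0.22), with equal sums without globin (-0.28) and with the replicate block (-0.37). In each of these 4 settings 0 ketone body genes were called lower. With median-of-ratios scaling 2 were, Slc16a1 (-0.36) having joined. Slc16a6 lost its call without the filter (0.93), where 0 were called higher, and it was not tested at a minimum mean of 5 RPKM, where 0 were called higher too. Signs turned with equal sums for Acat1 (0.0385), Bdh1 (0.0245) and Sucla2 (0.0454), a scaling that moved the median of all genes to 0.15, and relative to that median Acat1 (-0.11) and Bdh1 (-0.12) stayed below 0. The sign also turned with median-of-ratios scaling for Hcar2 (-0.0261). Bdh2 moved to 0.43 with a pseudocount of 0.1, and Slc16a7 to 1.14 and 0.59 with pseudocounts of 0.1 and 0.5, since low genes depend on it by construction. Other pathway genes called lower were 14 without the filter and 13 with equal sums, and those called higher 7 with equal sums and 6 with equal sums without globin. The share of all genes called was 12.0% without the filter, where more genes were tested. For the other changes named the cause was not tested.

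Replicate numbers were not shown to pair the samples: the correlation across genes of the difference between replicates 1 and 2 in one genotype with that in the other was 0.05. The replicate block gave 3606 calls over all genes, beside 4110, and kept 23 of the 29 calls among the ketone body and other pathway genes. The 6 it ended included Oxct1 (adjusted p 0.0577), Cpt1a (0.0585), Acadvl (0.0561), Suclg2 (0.0622) and Sdhc (0.0714).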
